A study of Mus musculus with 12 samples.

Results

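Ras, Raf, MEK and ERK form the core relay that carries growth signals from receptors at the cell surface to the nucleus. The core was taken as the probe sets whose platform gene symbol was one of 7 genes, namely the Ras GTPases Hras and Nras, the Ras-inactivating proteins Nf1 and Rasa1, and the kinases Braf, Map2k1 (MEK1) and Mapk3 (ERK1). The annotation used here listed 10 probe sets for 5 of these genes among 22690 on the array, with 3 for Nras, 3 for Rasa1, 2 for Nf1 and 1 each for Braf and Map2k1. Hras and Mapk3 were not analysed here.

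The RNA came from mammary tumours of female FVB mice carrying MMTV-c-myc, a c-myc transgene under the promoter of the mouse mammary tumour virus. In the knockout group, Hunk, an Snf1-related protein kinase, had been disrupted in E14 embryonic stem cells by putting a pGKneo cassette in place of its putative promoter and exon 1. The wild-type group had intact Hunk, so the transgene was common to both groups. There were 6 arrays of each genotype, the females had been mated, and their ages are not given in the sources used here. Nothing in the labels states that the numbered arrays were separate tumours or mice, so p-values measure the spread between these samples, which may in part be technical.

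A Ras protein is active while it holds GTP. Nf1 and Rasa1 speed the hydrolysis of that GTP and so switch Ras off, whereas active Ras recruits Raf kinases such as Braf, which phosphorylate MEK, which in turn phosphorylates ERK. Active ERK induces Dusp6, a phosphatase that removes the activating phosphates from ERK, and Dusp6 transcript is therefore often read as an output of the relay. The activity of the relay lies in GTP loading and phosphorylation, and the arrays measured neither, only transcript levels.

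The deposited values were log2 GCRMA signals, and 1 unit is a change by a factor of 2 on the linear scale. Array medians ran from 3.87 to 4.10, and precision is limited by how many arrays there were. The highest Bacillus control probe set, which matches no mouse transcript, served as the background of each array and lay between 3.45 and 4.00. The targeted gene Hunk was above it in 0 of 6 knockout and 4 of 6 wild-type arrays, with wild-type array 6 at 2.99, inside the knockout range of 2.60 to 3.06. Whether its probes lie within the deleted part was not checked. The luminal epithelial markers Epcam, Krt8, Krt18 and Cdh1 were above background on all 12 arrays, whereas Esr1 was at background on all 12. The mean of the 8 measured luminal markers lay between 9.57 and 10.11 in the knockout and between 8.86 and 9.49 in the wild type, and Krt19 carried most of that separation. Among the 7 tested it alone had a limma adjusted p under 0.05 (log2 change 4.08, adjusted p = 0.0479). By their means, 6 of the 8 measured were higher in the knockout, Krt19 among them. Without Krt19 the mean of the other 7 overlapped, at 9.40 to 10.01 and 9.24 to 9.81, and the difference of the means went from 0.63 to 0.14. The log2 summed level of all 8, Krt19 included, ranged from 13.59 to 14.38 in the knockout and from 13.31 to 14.13 in the wild type. Arrays also stood apart by markers that passed no test between genotypes. The milk protein gene Csn2 was above background on knockout arrays 2, 3 and 6 (13.67, 14.22 and 14.08) and wild-type arrays 2 and 3 (12.85 and 12.48), and read 2.21 to 2.30 on the other 7. Those 7 still differed in the milk gene Csn3. It read 5.48, 7.37 and 6.95 on knockout arrays 1, 4 and 5, against 12.78, 11.15, 11.48 and 13.65 on wild-type arrays 1, 4, 5 and 6. The log2 summed level of the 4 milk genes, of which 0 of 3 tested passed, ranged from 6.43 to 15.26 in the knockout and from 11.19 to 14.45 in the wild type. Knockout array 3 alone had the muscle gene Myh4 above background (8.36), with Acta1 at 12.41 against at most 8.35 elsewhere, and knockout array 2 alone had the fat cell gene Adipoq above it (6.29). The beta-actin 3′ minus 5′ difference, a sign of RNA quality, averaged 1.51 ± 0.15 (SD, n = 6) among knockout arrays, against 1.29 ± 0.05 (SD, n = 6) among wild-type arrays. Knockout arrays 4 and 5 were the closest pair, with an SD of their difference over probe sets of 0.259 against 0.412 for the next pair.

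The question put to the core was whether its transcripts differed between tumours with and without Hunk, given the difference in Dusp6. Rasa1 averaged lower and Map2k1 higher in the knockout, each without passing the test over the whole table, and Nras averaged about the same in both genotypes. Nf1 and Braf had no signal above background on any array. Of the 10 core probe sets, 7 passed the filter on low values (a mean over all arrays above 3.98), and 0 of these 7 passed the test (limma, Benjamini-Hochberg adjusted p under 0.05 over 11313 probe sets), where 2.46% of all tested probe sets did. At an unadjusted limma p under 0.05, 2 of the 7 passed, Rasa1 and Map2k1 with 1 probe set each, against 19.1% of all tested. With each probe set tested on its own variance 0 passed as well. Over the whole table that fit called 139 probe sets, against 278 in the main fit. With array weights 1 core probe set passed, Map2k1, in a fit that called 602.

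**Figure D1:**
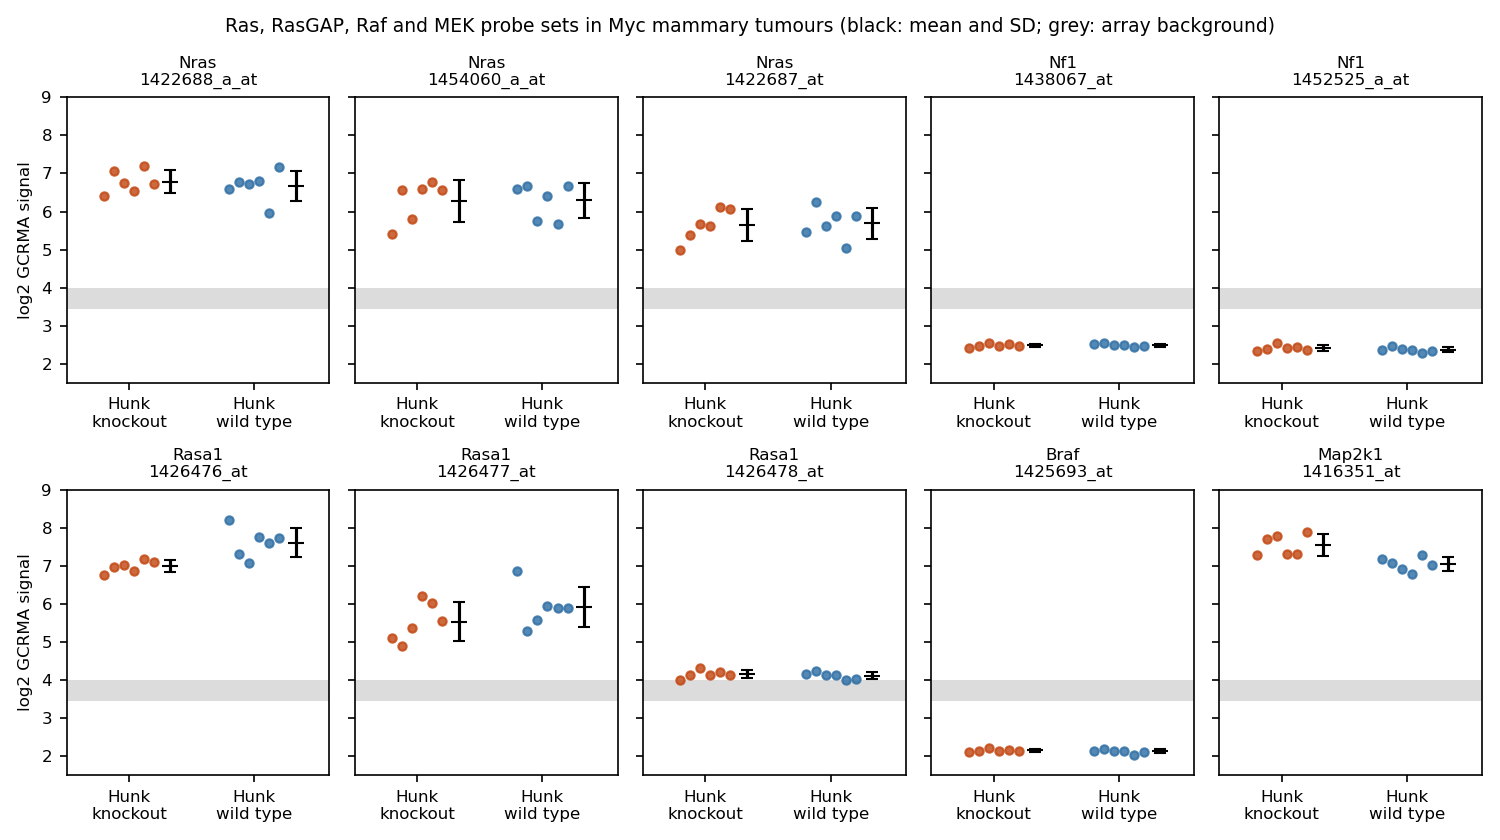
Log2 GCRMA signal of the 10 core probe sets in the 6 Hunk knockout and 6 wild-type arrays, with 1 point per array, the mean and SD in black, and the range of the array backgrounds (3.45 to 4.00) as a grey band. Nf1 and Braf lie below the band on all 12 arrays, Rasa1 1426478_at lies just at or above its upper edge, and the genotypes overlap in every panel.

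The level the core was set against differed widely. Dusp6 ranged from 2.91 to 4.69 in the knockout, with a median of 4.15, and from 6.71 to 10.30 in the wild type, with a median of 9.34. The genotypes did not overlap, which was so for 2.87% of all tested probe sets, and knockout array 4 was below its background. The log2 difference was -4.92 (SE 0.54, limma adjusted p = 0.000961), a 30.2-fold lower level in the knockout. With the mean of the luminal markers as a covariate it was -3.28 (limma adjusted p = 0.588), a fit in which 1 of all 11313 probe sets passed. With Krt19 left out of that mean it was -4.93 (limma adjusted p = 0.0025), and 257 probe sets passed. Without the 5 arrays that had Csn2 above background it was -5.86 (limma adjusted p = 0.00504), among arrays whose genotypes still differed in Csn3.

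Nras, one of the Ras GTPases that carry the signal at the membrane, was measured by 3 probe sets well above background. The brightest, 1422688_a_at, ranged from 6.41 to 7.21 in the knockout (median 6.73) and from 5.96 to 7.16 in the wild type (median 6.75). The genotypes covered nearly the same range, and wild-type array 5 was the lowest of the 12. The log2 difference was 0.11 (SE 0.20, limma adjusted p = 0.780), and its 95% interval ran from -0.33 to 0.55. The 1454060_a_at probe set ranged from 5.40 to 6.77 in the knockout and from 5.68 to 6.67 in the wild type, with a difference of -0.01 (SE 0.28, limma adjusted p = 0.982). The 1422687_at probe set ranged from 5.00 to 6.12 and from 5.05 to 6.24, with a difference of -0.04 (SE 0.23, limma adjusted p = 0.927). All 3 intervals included 0 and lay between -0.611 and 0.585, so that a change of 1 log2 unit in either direction was outside each of them. The 3 probe sets varied together from array to array, with Pearson correlations of 0.65 to 0.71 between their values after removal of the genotype means (12 arrays, a description of probe sets that read the same RNA). Their SD within genotypes was 0.35, 0.51 and 0.42, against a median of 0.33 over all tested probe sets.

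Rasa1 encodes p120 RasGAP, which binds activated growth factor receptors and speeds the return of Ras to its GDP-bound state. Its brightest probe set, 1426476_at, ranged from 6.76 to 7.19 in the knockout (median 6.99) and from 7.08 to 8.20 in the wild type (median 7.66). In 4 of 6 knockout arrays the level was below every wild-type array, and the overlap came from knockout arrays 5 and 6, at 7.19 and 7.10, and wild-type array 3, at 7.08. The log2 difference was -0.63 (SE 0.17, 95% interval -1.01 to -0.25), a 1.55-fold lower level, with a limma adjusted p of 0.0757 and an unadjusted exact two-sided permutation p of 0.00649. Without wild-type array 3 it was -0.74 (adjusted p = 0.0441), and this was the only fit of the 12 that each left out 1 array in which it passed.

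Neither of the other Rasa1 probe sets passed at an unadjusted limma p under 0.05, and only 1426477_at differed in the same direction. The 1426477_at probe set ranged from 4.90 to 6.21 in the knockout and from 5.28 to 6.85 in the wild type, with a difference of -0.38 (SE 0.28, limma adjusted p = 0.453). It varied with the brightest one from array to array (Pearson correlation 0.68 after removal of the genotype means, 12 arrays), and wild-type array 1 was the highest in both. The 1426478_at probe set ranged only from 4.00 to 4.32 in the knockout and from 4.00 to 4.24 in the wild type, with a difference of 0.05 (SE 0.07, limma adjusted p = 0.716), and had a correlation of 0.09 with the brightest. With the mean of the 3 probe sets taken as the level of the gene, the Rasa1 difference was -0.32 (SE 0.15, limma adjusted p = 0.248). That mean includes 1426478_at, which lay only 0.31 to 0.55 above background and moved with it, as described below. When the luminal mean was added as a covariate, the difference of 1426476_at was -0.07 (SE 0.29, limma adjusted p = 0.996) and that of 1426477_at turned to 0.41 (SE 0.49, limma adjusted p = 0.991). That mean separated the genotypes through Krt19, and with Krt19 left out of it the differences were -0.55 (SE 0.18, limma adjusted p = 0.128) and -0.31 (SE 0.30, limma adjusted p = 0.586). Without the 5 arrays that had Csn2 above background, the difference of 1426476_at was -0.88 (limma adjusted p = 0.0853), among arrays whose genotypes still differed in Csn3.

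Nf1, the other Ras-inactivating protein of the core, encodes neurofibromin, a tumour suppressor that Spred proteins bring to the membrane. Both of its probe sets were below background on all 12 arrays. The 1438067_at probe set ranged from 2.41 to 2.54 in the knockout and from 2.43 to 2.55 in the wild type, and 1452525_a_at from 2.34 to 2.55 and from 2.28 to 2.47. These values give only an upper bound on the level, and their log2 differences between genotypes, -0.01 and 0.05, compare values without signal. The Spred transcripts themselves were measured and fell, Spred1 by 1.34 (adjusted p = 0.0116) and Spred2 by 1.94 (adjusted p = 0.0029) on the log2 scale, as did the Raf and Ras pathway inhibitor Spry2 by 2.86 (adjusted p = 0.000364), all from limma over the whole table.

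Braf, the Raf kinase with the highest basal activity toward MEK, was likewise below background on all 12 arrays. Its only probe set ranged from 2.10 to 2.22 in the knockout and from 2.03 to 2.19 in the wild type. The difference between genotypes, 0.03 (SE 0.03, limma adjusted p = 0.553 in the fit over all 22626 probe sets that are not controls), therefore compares values without signal.

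The dim probe sets varied with the background of the array. Knockout array 3, with the highest background (4.00), was the highest of the 12 in Braf, Nf1 1452525_a_at and Rasa1 1426478_at, and wild-type array 5, with the lowest background (3.45), was the lowest in Braf and Nf1 1452525_a_at. Over the 12 arrays the correlation with the array background was Pearson r = 0.91 and Spearman rho = 0.80 for Braf (permutation p = 0.0001 and 0.00279, adjusted over 10 relations 0.000333 and 0.0093). It was r = 0.97 and rho = 0.96 for Nf1 1452525_a_at (permutation p = 1e-05, the smallest 100000 resamples can give, and 2e-05, adjusted 5e-05 and 0.0002). For Rasa1 1426478_at it was r = 0.90 and rho = 0.85 (permutation p = 1e-05 and 0.0008, adjusted 5e-05 and 0.004), and for Nf1 1438067_at r = 0.67 and rho = 0.71 (permutation p = 0.0145 and 0.0121, adjusted 0.0363 and 0.0303). Without knockout array 3 and wild-type array 5, the 2 farthest from the median background, the values of r for these probe sets were 0.89, 0.94, 0.88 and 0.65. Rasa1 1426478_at thus lay 0.31 to 0.55 above background on every array and yet moved with it. The 6 brighter core probe sets had Pearson correlations with the background between -0.35 and 0.42 (adjusted permutation p of 0.37 or more) and Spearman correlations between -0.30 and 0.60 (adjusted permutation p of 0.0883 or more). The highest of these was Nras 1422687_at, with rho = 0.60 (permutation p = 0.0441, adjusted 0.0883) and r = 0.38. These relations were looked at after the values were seen.

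**Figure D2:**
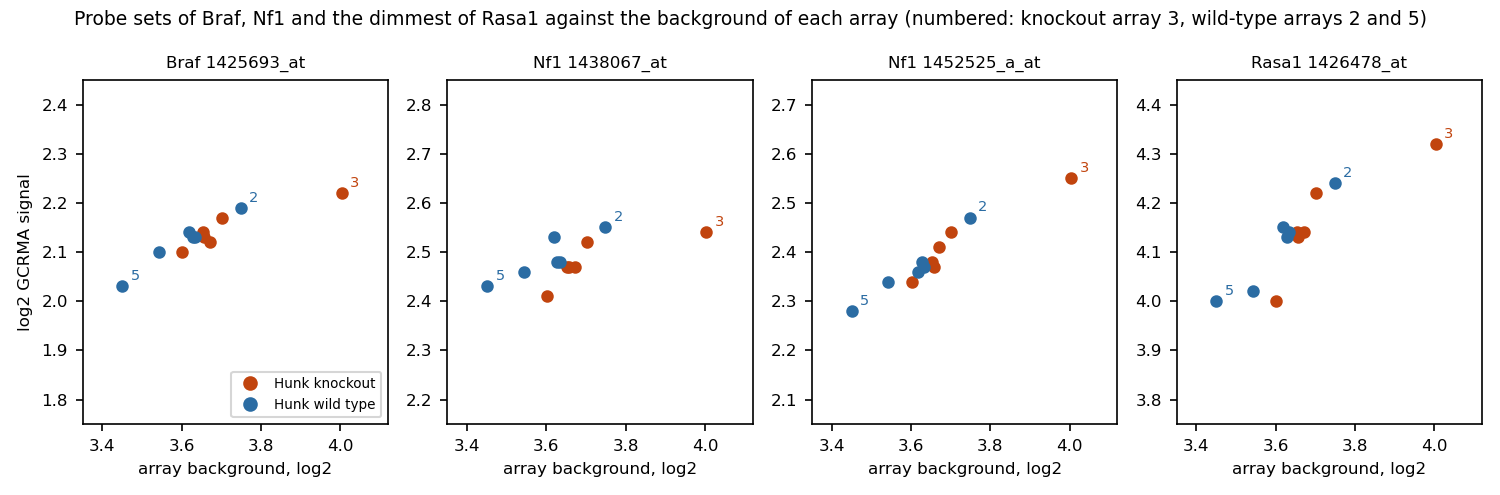
Log2 GCRMA signal of the Braf probe set, both Nf1 probe sets and the dimmest Rasa1 probe set against the background of the same array (log2 signal of its highest Bacillus control), with 1 point per array and genotypes by colour. Knockout array 3, at a background of 4.00, lies at the right and wild-type array 5, at 3.45, at the left, and the points of both genotypes rise along the same line in the panels of Braf, Nf1 1452525_a_at and Rasa1 1426478_at.

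Map2k1 encodes MEK1, the kinase that phosphorylates ERK on its activation loop. Its only probe set ranged from 7.27 to 7.90 in the knockout (median 7.51) and from 6.78 to 7.29 in the wild type (median 7.05). In 5 of 6 knockout arrays the level was above every wild-type array, and the overlap came from knockout array 1, at 7.27, and wild-type array 5, at 7.29. The log2 difference was 0.50 (SE 0.15, 95% interval 0.18 to 0.83), a 1.42-fold higher level, with a limma adjusted p of 0.0941 and an unadjusted exact two-sided permutation p of 0.00433. With array weights it was 0.53 (limma with weights, adjusted p = 0.0464), in a fit that called 602 probe sets against 278 in the main fit. Within the knockout, Map2k1 was highest on the 3 arrays with Csn2 above background, at 7.71, 7.78 and 7.90 on arrays 2, 3 and 6, and read 7.27, 7.31 and 7.31 on arrays 1, 4 and 5. The wild-type arrays did not split this way by Csn2, with 7.08 and 6.91 on arrays 2 and 3 and 6.78 to 7.29 on the other 4. However, those wild-type arrays 2 and 3 had the milk gene Wap at only 5.56 and 5.47. On knockout arrays 2, 3 and 6 Wap read 10.62, 11.50 and 12.59, so arrays with Csn2 were not alike in milk genes between genotypes. Without the 5 arrays that had Csn2 above background the difference was 0.23 (SE 0.17, limma adjusted p = 0.486), among arrays whose genotypes still differed in Csn3. With the mean of the 4 milk genes as a covariate the difference was 0.44 (SE 0.13, limma adjusted p = 0.0731). When the beta-actin difference was added as a covariate it was 0.23 (SE 0.20, adjusted p = 0.682), and the part of RNA quality in it was not tested further. Its SD within genotypes, 0.24, was larger than that of 30.1% of the probe sets tested.

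Set against Dusp6, array by array, no core gene followed it within a genotype by the test. Because the genotypes do not overlap in Dusp6, the relation was computed within the 6 arrays of each, for the brightest probe set of each of the 5 genes, which gave 10 relations. In the wild type, Rasa1 had the highest correlation with Dusp6, with Pearson r = 0.80 (exact permutation p = 0.0514, adjusted over 10 relations p = 0.514) and Spearman rho = 0.60 (exact permutation p = 0.242, adjusted p = 0.699). It rested on wild-type arrays 3 and 2, which were lowest in Dusp6 (6.71 and 8.20) and in Rasa1 (7.08 and 7.32), since r without them was -0.04. These are also the 2 wild-type arrays with Csn2 above background. A size of r over 0.8 with Dusp6 was found in 5.24% of all other tested probe sets in the wild type and in 7.46% in the knockout, and 43.9% and 43.1% had a positive r.

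Map2k1 had r = 0.53 and rho = 0.71 among wild-type arrays (exact permutation p = 0.285 and 0.136, adjusted 0.906 and 0.681), and r without arrays 3 and 2 was 0.95. In the knockout it had r = 0.28 and rho = -0.09 (exact permutation p = 0.71 and 0.919, adjusted 0.96 and 0.919). Nras had r = -0.37 and rho = -0.43 among wild-type arrays (exact permutation p = 0.438 and 0.419, adjusted 0.906 and 0.699), with wild-type array 5 highest in Dusp6 (10.30) and lowest in Nras (5.96). In the knockout Nras had r = 0.11 and rho = -0.26 (exact permutation p = 0.864 and 0.658, adjusted 0.96 and 0.731), and Rasa1 had r = -0.02 and rho = -0.37 (exact permutation p = 0.978 and 0.497, adjusted 0.978 and 0.705). Without knockout arrays 4 and 1 these values of r were 0.57 for Map2k1, -0.13 for Nras and -0.77 for Rasa1. Each r without 2 arrays of a genotype, also that of Rasa1 in the wild type, rests on the few arrays left of 6. No p-value was computed for it. Knockout values of Dusp6 lay near background, and below it on array 4. The 4 relations of Nf1 and Braf, which lack signal, had r between -0.54 and -0.07 (exact permutation p of 0.268 to 0.864, adjusted 0.906 to 0.96).

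**Figure D3:**
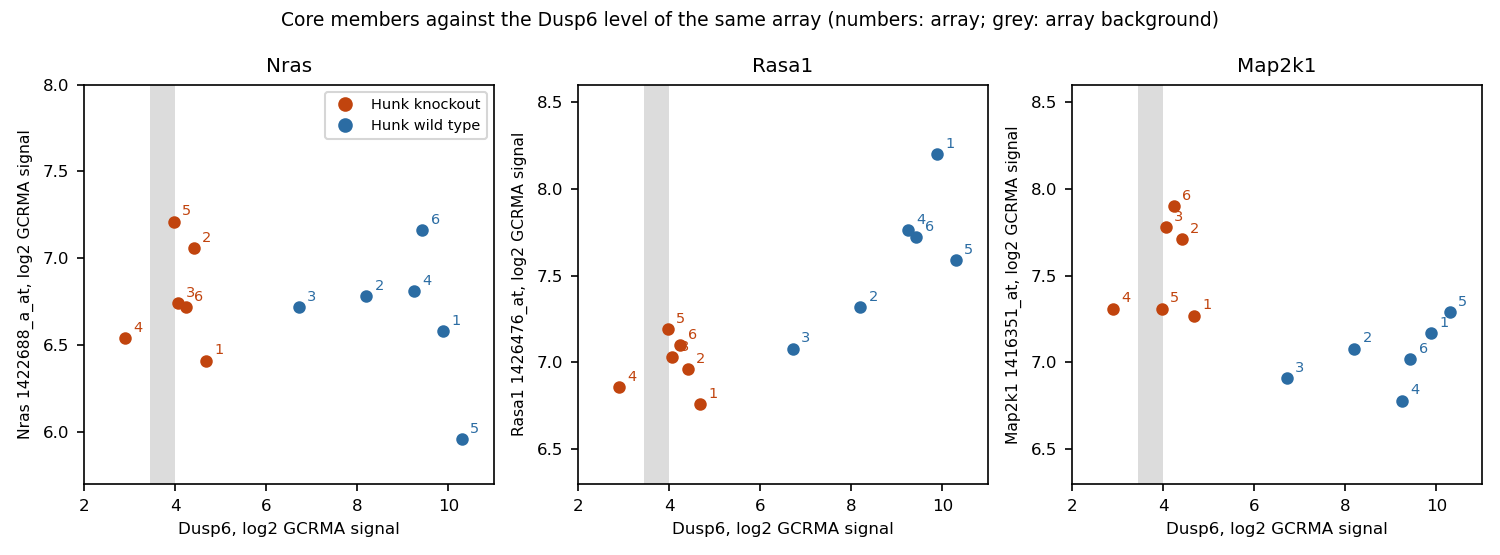
Log2 GCRMA signal of the brightest probe set of Nras, Rasa1 and Map2k1 against that of Dusp6 on the same array, with points numbered by array, genotypes by colour and the range of array backgrounds as a grey band. The knockout arrays lie between 2.91 and 4.69 of Dusp6 and the wild-type arrays between 6.71 and 10.30, with wild-type arrays 3 and 2 at the lower left of the wild-type points for Rasa1.

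The genes whose levels followed each measured core gene most closely were found among all tested genes by the Pearson correlation over 12 arrays after removal of the genotype means. The 2 highest of so many genes over 12 arrays are high in part through that choice, and no p-value was computed for them. For Nras the closest were Cpox (0.882) and Gnptab (0.865). For Rasa1 they were S100a1 (0.924) and Zfp617 (0.912), and for Map2k1 Usp20 (0.889) and Pnpla7 (0.880). Between genotypes S100a1 went the other way from Rasa1, with means of 7.70 in the knockout and 6.78 in the wild type. For the unmeasured genes the closest were Csl (0.995) and Bcl6b (0.991) for Braf, and Rilpl1 (0.963) and Efna4 (0.943) for Nf1, and these 4 ranged over no more than 3.99 to 4.59 on all 12 arrays, close to background themselves.

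The rest of the pathway was described with a list of 50 genes, of which 41 had a probe set and 27 passed the filter. Mknk2 alone rose, 0 fell and the other 26 missed the threshold (limma adjusted p under 0.05), a share of 1 in 27 against 2.8% of all 6824 genes tested. Their median log2 change was 0.02, beside 0.01 for all genes tested. At an unadjusted p under 0.05, 6 of the 27 passed, against 19.5% of all genes tested.

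Mknk2 is a kinase that ERK activates and that phosphorylates a cap-binding translation factor. It ranged from 9.06 to 10.41 in the knockout (median 9.61) and from 8.30 to 9.04 in the wild type (median 8.72), so that the genotypes did not overlap. The log2 change was 0.92 (SE 0.22, limma adjusted p = 0.0495), a 1.89-fold rise. The call was held in 1 of the 12 fits that each left out 1 array, the one without knockout array 2, and in 6 of 16 other fits.

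Among the upstream genes, the Ras-related GTPases Rras (log2 difference 0.50, adjusted p = 0.342) and Rras2 (0.08, adjusted p = 0.736) did not pass. The phosphatase Ptpn11 (0.02, adjusted p = 0.968) and the adaptor Shc1 (-0.04, adjusted p = 0.907), both of which link receptors to Ras activation, did not pass either, nor did the other 4 tested exchange factors and adaptors. Of 6 measured further Ras GTPase-activating proteins, only Dab2ip passed the filter (-0.02, adjusted p = 0.97), and 4 were at background on all 12 arrays. Rasa3 was above background in 0 of 6 knockout and 2 of 6 wild-type arrays.

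Downstream, the second MEK, Map2k2 (0.25, SE 0.21, adjusted p = 0.503), and the Raf kinase Araf (0.20, SE 0.12, adjusted p = 0.381) were above background on all 12 arrays and did not pass. Pebp1, which binds Raf and hinders its contact with MEK, had a difference of 0.27 (adjusted p = 0.275), and the scaffold Iqgap1 one of -0.63 (SE 0.22, adjusted p = 0.155). The ERK-responsive transcription factor Elk4 (-0.13, adjusted p = 0.821) and the Ras-processing proteins Golga7 (-0.13, adjusted p = 0.736) and Fnta (-0.12, adjusted p = 0.674) did not pass. All adjusted p-values here are from limma over the whole table.

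**Figure D4:**
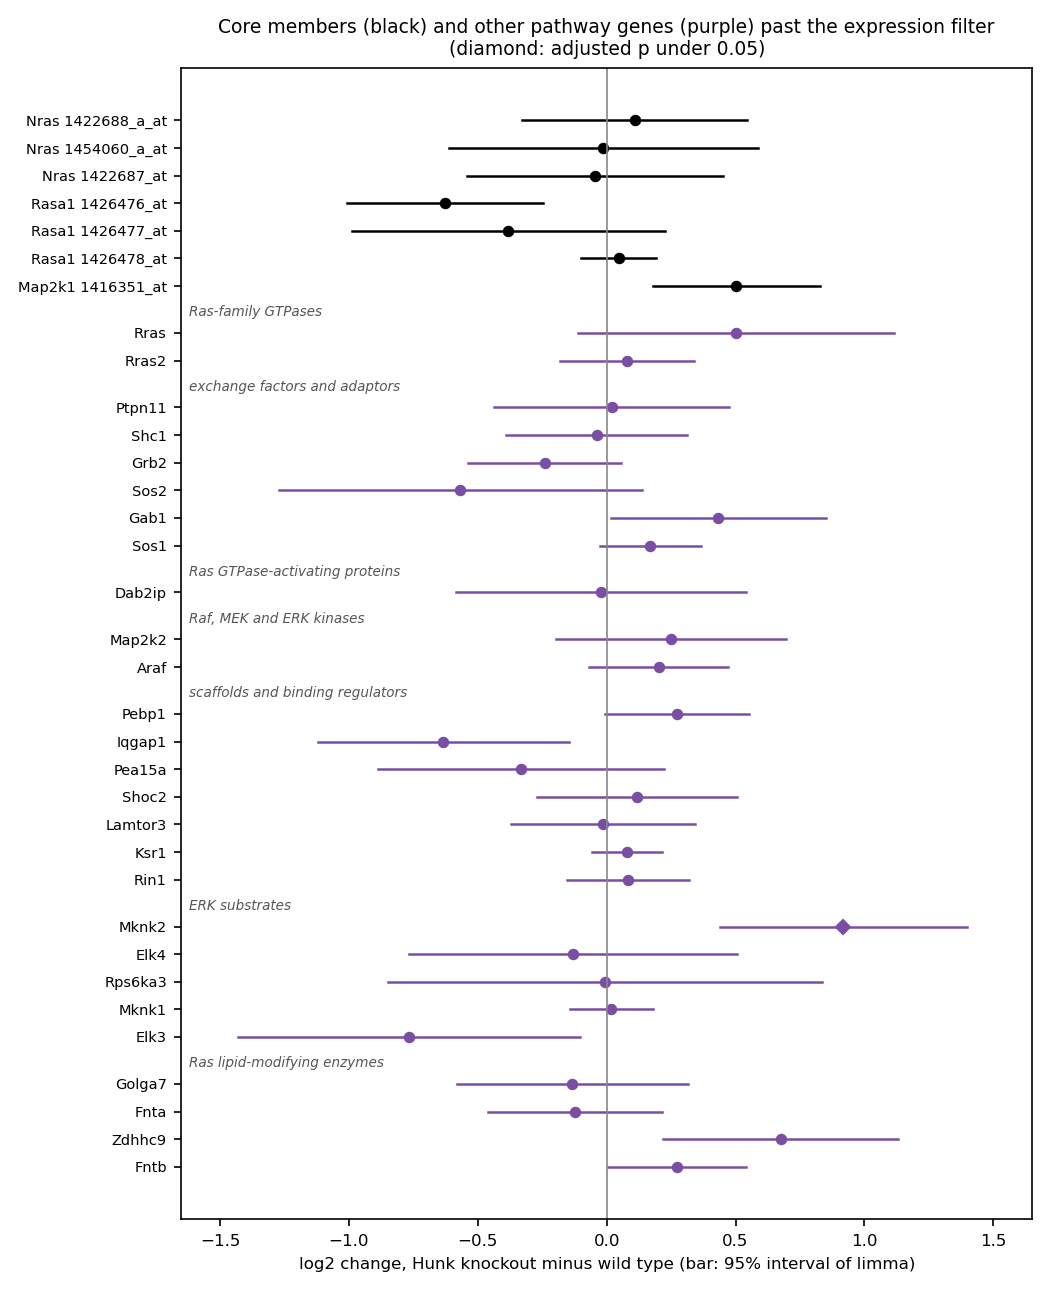
Log2 change (knockout minus wild type, n = 6 per genotype) with the 95% interval of limma for the 7 core probe sets (black) and the 27 pathway genes (purple) past the filter, grouped by role, with a diamond for an adjusted p under 0.05. The diamond is Mknk2 at 0.92, and in the core the intervals of Rasa1 1426476_at (-1.01 to -0.25) and Map2k1 (0.18 to 0.83) leave out 0.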

How the data were processed

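Values were used as deposited, in log2: 22690 probe sets by 12 arrays of GCRMA signals, GCRMA (no version) being named in the submitters' processing notes. GCRMA draws low signals toward a floor. Biotin-labelled cRNA was made from Trizol-extracted total RNA, per the labels' protocols, and 0 columns were left unused. Symbols came from the platform annotation (20393 probe sets with 1 symbol, 691 with several, 1606 unlisted), updated by gene identifier through a RefSeq table of GRCm38.p6. The probe set of highest mean stands for a gene.

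Probe sets with a mean above the median of 3.98 were tested with limma 3.58.1 in R 4.3.3 (lmFit, eBayes with trend, genotype as the only term), and those below it in a fit over all probe sets, with Benjamini-Hochberg adjustment at 0.05. Permutation tests of group means were exact over 924 splits, two-sided, with 0.00216 as the smallest p. Relations used exact pairings (720 for 6 arrays) or 100000 resamples, two-sided. Both steps were checked on simulated data. Named genes are the core, Dusp6, Hunk, called pathway genes, the 2 of highest mean per role, 3 Spred and Sprouty inhibitors and the 2 closest genes by correlation. The labels used here name no batch. The members and lists were chosen with earlier results of these data known. Figures used matplotlib 3.10.9.

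Same-numbered arrays of the 2 genotypes had correlations of their deviations between -0.02 and 0.14. Of the 6 knockout arrays, 3 correlated best with the wild-type array of their own number. The labels do not say that a number marks a shared batch, so the arrays were not treated as pairs, and a replicate block was tried as an alternative. The alternatives tried were the expression filter, the variance model, normalization, array weights, a replicate block, beta-actin and luminal covariates, a floor at background, averaged knockout arrays 4 and 5, other thresholds, the gene summary and leaving out each array. Chosen after seeing the data were the luminal covariate without Krt19, a milk covariate and leaving out the 5 arrays with Csn2 above background. Marker lists gave the following counts of members that rose or fell with an adjusted p under 0.05 among those tested: luminal 1 and 0 of 7, milk 0 and 0 of 3, basal 0 and 0 of 5, fibroblast 0 and 0 of 4, adipocyte 0 and 0 of 2, macrophage 0 and 0 of 6, lymphocyte 0 and 0 of 2 and skeletal muscle 0 and 0 of 1. No endothelial marker passed the filter.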

Additional observations from a re-analysis of the deposited data

Results flagged for a closer look

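Arrays that stood apart from the other 5 of their genotype were looked for in 57 probe sets, the core, Dusp6, Hunk, Myc, Spred1, Spred2, Spry2 and the pathway list, by the ratio of the gap to the range (Dixon's 95% critical value for 6 arrays). This gave 10 of 114 groups, where chance gives about 1 in 20, or 5.7, and none was a core probe set. The widest was Rasgrf1, a Ras exchange factor known best from neurons, which read 9.54 in knockout array 2 and 2.99 to 3.27 in the other 5 knockout arrays. Its level was above background on that array alone of the 12.

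Of those above background, Rasa3 read 4.98 in wild-type array 6 against 3.41 to 3.75 in the others of its genotype, and Map2k2 read 6.56 in wild-type array 1 against 7.49 to 7.72. Shoc2, a Raf-activating scaffold, read 6.17 in knockout array 4 against 6.93 to 7.15, and Lamtor3, a MEK1-binding scaffold, read 6.71 in wild-type array 1 against 6.14 to 6.34. The other 5 were below background and carry no level: Hunk (2.60, knockout array 4), Mras (2.80, wild-type array 1), Rasgrf2 (2.77, knockout array 3), Rasal2 (2.60, wild-type array 2) and Rasal1 (2.30, knockout array 6).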

How the results depend on the processing

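The count of 278 probe sets past the threshold (133 higher, 145 lower) became 152 with no filter, 139 on each probe set's own variance, 602 with array weights, 112 with the replicate number as a block, 104 with the beta-actin covariate (71 higher, 33 lower), 1 with the luminal covariate, 170 with knockout arrays 4 and 5 averaged, 435 with the milk covariate (236 higher, 199 lower), 666 at an adjusted p under 0.1 and 65 under 0.01. It ranged from 134 to 315 without 1 array, falling by over 1.5 times without knockout arrays 4, 5 or 6 (168, 161 and 167) or wild-type arrays 4 or 6 (134 and 184). Median centring gave 85 higher and 152 lower. The causes were not tested.

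Mknk2, the 1 pathway call, became 0 with no filter, robust eBayes, own variance, median centring, the replicate block, the beta-actin covariate, the luminal covariate with or without Krt19, averaged arrays 4 and 5, the 5 arrays with Csn2 left out, a threshold of 0.01 or the mean of a gene's probe sets, and 0 to 1 without 1 array. The replicate block left every core probe set past or short of the threshold as before.

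Map2k1 passed with array weights (0.53). Without 1 array Rasa1 1426476_at lay between -0.74 and -0.51 and Map2k1 between 0.43 and 0.56. Dusp6 kept its direction in every fit and lost its call in the luminal fit (-3.28) but not with Krt19 left out of that covariate. The 3 fits chosen after seeing the data, with the luminal covariate without Krt19, with the milk covariate or without the arrays with Csn2, gave no core probe set a call.

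Some differences changed sign without passing, the largest of them as reported being Rasa1 1426477_at at -0.381. With quantile normalization these were Nras 1454060_a_at (0.036) and Rasa1 1426478_at (-0.005). With median centring they were Nf1 1452525_a_at (-0.008), Rasa1 1426478_at (-0.011) and Braf (-0.029), with array weights Nras 1454060_a_at (0.223) and 1422687_at (0.036), and with beta-actin Nf1 1452525_a_at (-0.038), Rasa1 1426478_at (-0.093) and Braf (-0.021). With the luminal markers they were Nras 1454060_a_at (0.754), Nf1 1452525_a_at (-0.043), Rasa1 1426477_at (0.407) and 1426478_at (-0.021) and Braf (-0.017), and with the floor Nf1 1438067_at (0.111). With the luminal markers without Krt19 they were Nras 1454060_a_at (0.284) and 1422687_at (0.128) and Nf1 1438067_at (0.005), and without the arrays with Csn2 Nras 1422687_at (0.006). Without 1 array, Nras 1422688_a_at ranged from -0.032 to 0.208, 1454060_a_at from -0.137 to 0.163, 1422687_at from -0.173 to 0.085 and Nf1 1438067_at from -0.019 to 0.007.

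Among the correlations with Dusp6, none passed under any alternative. Where 1 array was left out or knockout arrays 4 and 5 were averaged, that genotype had fewer pairings. A single relation there could not pass after adjustment over 10 relations whatever its r, so those fits cannot decide whether it would. The sign turned with quantile normalization for Braf in the knockout (0.13) and Nf1 in the wild type (0.68), and with median centring for Nf1 (0.32), Rasa1 (0.16) and Braf (0.66) in the knockout and Nf1 (0.59) in the wild type. It also turned for Nras in the knockout with arrays 4 and 5 averaged (-0.42) or the floor (-0.16). Without 1 array, the ranges in the knockout were -0.65 to 0.59 for Nras, -0.95 to 0.15 for Nf1, -0.92 to 0.55 for Rasa1, -0.83 to 0.30 for Braf and -0.24 to 0.70 for Map2k1. In the wild type they were -0.61 to 0.16 for Nras, -0.66 to 0.05 for Nf1, 0.58 to 0.94 for Rasa1, -0.85 to -0.26 for Braf and 0.30 to 0.86 for Map2k1. Another Dusp6 probe set was not run, since the annotation lists 1.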
